A study of Mus musculus with 12 samples.

Results

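The genes described here are 32 genes of the p53 pathway, chosen by name from a list of p53, its regulators and its transcriptional targets. They were measured in E14 mouse embryonic stem (ES) cells in which a short hairpin RNA (shRNA) depleted one of 2 histone demethylases. A probe carrying the gene's symbol was found for 30 of the 32 genes, out of 17658 genes with a probe. No probe with the symbol of Trp53, which encodes p53, or of the apoptosis effector gene Bax was found, so their expression was not analysed. Where a gene had several probes, the one with the highest mean over the 12 arrays was used. Of the 30 genes, 26 lay above an intensity of 32 on at least 3 of the 12 arrays and were tested, among 9222 tested genes in all. The probes of Btg2, Rrm2b and Cd82 stayed below 32 on every array, and that of Tnfrsf10b exceeded it on 1 array (32.6, Jmjd2c replicate 1).

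p53 is a transcription factor that is stabilised by DNA damage and other stresses. It switches on genes for cell-cycle arrest, apoptosis and DNA repair, and also Mdm2, whose product marks p53 for degradation and so closes a negative feedback loop. In mouse ES cells p53 is also known for lowering Nanog transcription after DNA damage. The genes were sorted by the role their products are known for: arrest and the cell cycle (7 genes), feedback on p53 (6), apoptosis (10), repair and redox control (5) and cell surface or MAP kinase signalling (3), besides Trp53 itself.

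All cultures were feeder-free E14 cells grown on gelatin with serum and LIF, and each received 2 µg of a pSUPER puro plasmid. In 3 cultures it expressed an shRNA against Jmjd1a (Kdm3a), in 3 an shRNA against Jmjd2c (Kdm4c), and in 6 an shRNA against firefly luciferase (Luc). The labels call them biological replicates. Luc cultures were selected with 1.0 µg/ml puromycin over 4 days before harvest. For the knockdown cultures the label text used here names puromycin and ends before its dose, so whether selection was equal was not checked. Their medium description also breaks off, so whether the full medium was equal was not checked either. The labels name 1 shRNA target per culture and do not say whether more than 1 hairpin was used, and both knockdowns and controls carry the puromycin resistance vector.

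The 6 Luc arrays fell into 2 sets, replicates 1 to 3 (Luc 1-3) and 4 to 6 (Luc 4-6), which the labels do not name. Log2 values correlated with r = 0.995 to 0.997 among arrays of the same group, and with r = 0.962 to 0.964 between the Luc sets. The Jmjd1a arrays correlated more closely with Luc 1-3 (r = 0.986 to 0.988) than with Luc 4-6 (0.950 to 0.952), and the Jmjd2c arrays more closely with Luc 4-6 (0.980 to 0.983) than with Luc 1-3 (0.974 to 0.976). Jmjd1a was compared with Luc 1-3 and Jmjd2c with Luc 4-6, a pairing that the labels do not state and that was chosen with earlier results of these data known. Between 13591 and 14996 probes per array exceeded 32. The targeted transcripts fell: Kdm3a from 2145 ± 164 (SD, n = 3) in Luc 1-3 to 809.8 ± 35.8 in Jmjd1a (log2 change -1.40 ± 0.06, SE), and Kdm4c from 271 ± 6.14 in Luc 4-6 to 104 ± 2.36 in Jmjd2c (-1.38 ± 0.06). Of 11 listed ES cell markers, Pou5f1 and Nanog among them, 10 exceeded 32 in every group on at least 1 array, and Dppa5a on none. Of 10 listed fibroblast markers, Col1a1, Col1a2, Col3a1, Postn and Lum were below 32 on every array, Dcn exceeded it on 1 array, and Thy1, Twist1 and Pdgfrb exceeded it in every group, with group means of 39.6 to 101.3.

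p53 binds a response element built from decamers of a known consensus. The stretch just before the start is shown for 3 genes, the arrest gene Cdkn1a and the feedback genes Mdm2 and Ccng1, because all 3 hold such decamers and their transcripts differ in the results. Promoters from RefSeq (GRCm38.p6) were found for 23 of the 32 genes. In the 250 bases before an annotated start, a perfect match to the p53 decamer consensus (a palindrome, so both strands are covered) was present for 11 of the 23 genes: Trp53, Cdkn1a, Gadd45a, Ckap2, Mdm2, Ccng1, Aen, Ei24, Polk, Sesn1 and Bax. Over all 27025 genes with such windows it was present for 8.2%, and over all 32851 windows in 7.13%. A gene counted if any of its windows held a match. Where a gene printed here had more than 1 window, one with the most matches was printed. The 23 genes were listed as p53 or its regulators and targets, so their higher share is not independent evidence of p53 sites. A match describes the sequence and is not a measured binding site. The 3 windows are Cdkn1a at chr17:29090729-29090978 (plus strand), an annotated start 2790 bases upstream of the other Cdkn1a start, Mdm2 at chr10:117710759-117711008 (minus strand) and Ccng1 at chr11:40755287-40755536 (minus strand). They are written 5′ to 3′ with decamer matches in capitals.
Cdkn1a: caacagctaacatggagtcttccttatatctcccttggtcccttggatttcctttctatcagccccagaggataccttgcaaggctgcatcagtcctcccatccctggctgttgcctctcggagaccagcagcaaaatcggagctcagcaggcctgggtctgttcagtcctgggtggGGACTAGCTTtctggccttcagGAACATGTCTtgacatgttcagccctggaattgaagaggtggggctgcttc
Mdm2: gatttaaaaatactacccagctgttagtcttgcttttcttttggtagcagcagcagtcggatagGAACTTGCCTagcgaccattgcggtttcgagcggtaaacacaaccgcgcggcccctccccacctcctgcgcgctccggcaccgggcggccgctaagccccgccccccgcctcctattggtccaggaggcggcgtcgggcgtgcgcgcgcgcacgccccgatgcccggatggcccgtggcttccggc
Ccng1: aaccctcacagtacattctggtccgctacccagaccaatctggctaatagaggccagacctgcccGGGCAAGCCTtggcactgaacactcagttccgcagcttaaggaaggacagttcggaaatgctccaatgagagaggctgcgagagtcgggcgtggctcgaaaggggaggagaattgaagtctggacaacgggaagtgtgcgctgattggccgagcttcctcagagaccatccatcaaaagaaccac
In Cdkn1a the matches began at -73 and -51 from the start, in Mdm2 at -186 and in Ccng1 at -185. Only perfect matches are in capitals, so imperfect decamers, also next to a marked one, and sites outside the printed windows are not shown. Of these 3 genes, Mdm2 and Ccng1 rose in both knockdowns and Cdkn1a passed the test in neither. Plk2, Phlda3 and Epha2 also rose in both, with no match in their windows. The 3 printed genes were picked with these results known, and a link between matches and changes was not tested.

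The first comparison was Jmjd1a depletion against its Luc controls. Of the 26 tested genes 13 were higher than in Luc 1-3, 1 was lower and 12 did not pass (limma adjusted p under 0.05). Over all 9222 genes tested, 28.1% were called, 14.5% higher and 13.6% lower. The median log2 change was 0.26 over the 26 genes and 0.00 over all genes tested. The genes that rose included the feedback regulators Mdm2 and Ccng1, the apoptosis genes Perp, Phlda3, Pmaip1 and Apaf1, the kinase Plk2 and the phosphatase Dusp4. In these bulk cultures a change in the number of cells of a type and a change in RNA per cell cannot be told apart. All 3 Jmjd1a arrays lay above all 3 Luc 1-3 arrays for 15 of the 26 genes and below them for 2, against 23.3% and 21% of all genes tested.

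Depletion of Jmjd2c was compared with Luc 4-6 in the same way. Of the 26 genes 13 were higher than in Luc 4-6, 4 were lower and 9 did not pass. Over all genes tested 42.4% were called, 22.7% higher and 19.6% lower. The median change was 0.18 against 0.02 over all genes. The rises included Mdm2, Ccng1, Perp, Phlda3, Plk2 and Dusp4 again, and the falls were those of the cyclin gene Ccng2, the Mdm2 partner Mdm4 and the repair genes Ddb2 and Xpc. All 3 Jmjd2c arrays lay above the Luc 4-6 arrays for 16 genes and below them for 4, against 28.7% and 24.5% of all genes tested.

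Markers of cell identity moved with the groups too. Of 10 tested ES markers 5 fell in Jmjd1a and 4 in Jmjd2c, and 0 rose in either, where 13.6% and 19.6% of all genes tested were called lower. Their summed intensity was 29732 to 31489 in Luc 1-3 and 24050.2 to 24208 in Jmjd1a, then 31914 to 32606 in Luc 4-6 and 28178 to 29443 in Jmjd2c. Trophectoderm markers, with Cdx2 and Krt8 among them, rose for 5 of 7 tested genes in Jmjd1a and 3 of 7 in Jmjd2c. Of all genes tested, 14.5% and 22.7% were called higher. The trophectoderm markers summed to 1654 to 1705 in Luc 1-3, 1897 to 1998 in Jmjd1a, 2642 to 3196 in Luc 4-6 and 3673 to 4003 in Jmjd2c. Tfap2c made up the largest part of these sums, with means of 1156.5, 1024.5, 2178.1 and 2221 in the same order. It passed in neither knockdown (-0.18 and 0.03, adjusted p = 0.147 and 0.799). Elf5 and Hand1 were below 32 on every array. Endoderm markers fell for 3 of 6 tested genes in Jmjd1a, whereas 4 rose and 1 fell in Jmjd2c, against the same shares of all genes. Sox17, 1 of the 4 rises, exceeded 32 on 2 Luc 1-3 arrays, all 3 Jmjd2c arrays and no other array. It met the filter only through its Jmjd2c arrays, which favoured a call of higher. Its rise of at least 4.61-fold over Luc 4-6 is therefore not read as a result. They summed to 1607 to 1647 in Luc 1-3, 726 to 854 in Jmjd1a, 858 to 906 in Luc 4-6 and 2469 to 2729.8 in Jmjd2c. Sox7, Afp and Ttr were below 32 on every array. Fibroblast markers summed to 228 to 239 in Luc 1-3, 217 to 246 in Jmjd1a, 312 to 342 in Luc 4-6 and 307 to 315 in Jmjd2c. Of 4 tested, 0 rose and 1 fell in Jmjd1a, and 1 rose and 2 fell in Jmjd2c, against the same shares of all genes. Thy1 fell in both (-0.77 and -1.22) and Pdgfrb in Jmjd2c (-0.69). Acta2, the 1 called rise, averaged 79.6 in Jmjd2c and was below 32 on every array of the other groups. It entered the tests only through its Jmjd2c arrays, which favoured a call of higher. Its rise of at least 2.46-fold over Luc 4-6 is therefore not read as a result. The part of these shifts in the changes of the p53 pathway genes was not tested.

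The Jmjd1a and Jmjd2c comparisons share no array. Rises were called in both for 9 of the 26 genes, Plk2, Mdm2, Ccng1, Zmat3, Trp53inp1, Perp, Phlda3, Epha2 and Dusp4, and in both for 6.5% of all genes tested. Falls were called in both for 0 of the 26 genes and for 6.34% of all genes tested. Cdkn1a, Bbc3, Fas and Ei24 passed in neither. In the direct test of the difference between the Jmjd1a change and the Jmjd2c change, 10 of the 26 genes passed, 7 with the higher change in Jmjd1a and 3 with the higher change in Jmjd2c, where 25.9% of all genes did, 12.9% each way.

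**Figure D1:**
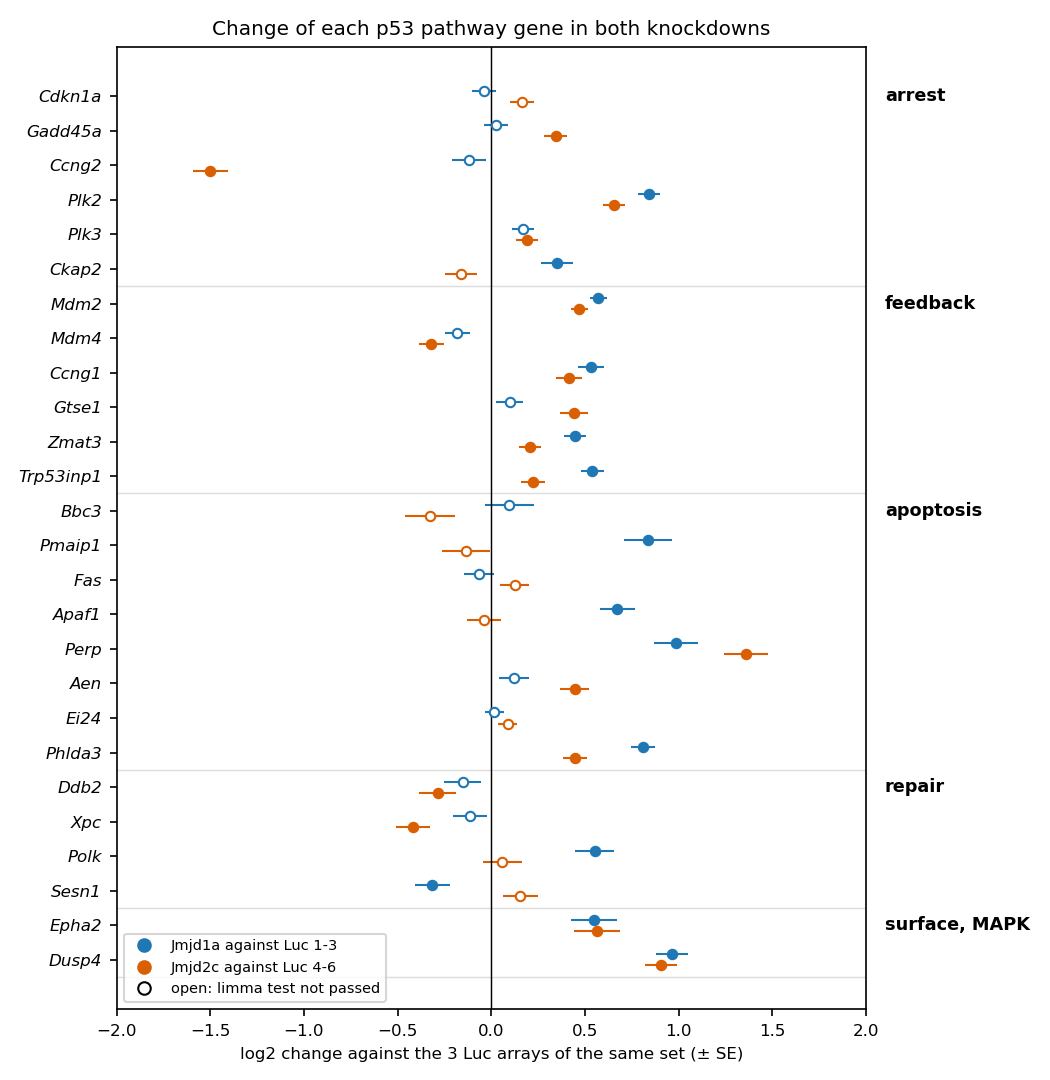
Log2 change (x axis, ± SE) of the 26 tested p53 pathway genes (y axis, in blocks by role) in Jmjd1a against Luc 1-3 (blue) and Jmjd2c against Luc 4-6 (orange), 3 arrays a group, with open circles for changes that did not pass limma's test. Mdm2, Ccng1, Zmat3 and Trp53inp1 lie to the right of 0 in both, whereas Cdkn1a lies near 0 and Ccng2 at -1.50 in Jmjd2c.

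Among the feedback genes, 4 of 6 rose in Jmjd1a with 0 lower (median log2 change 0.49), and 5 of 6 rose in Jmjd2c with 1 lower (median 0.32). Of all genes tested, 14.5% and 22.7% were called higher and 13.6% and 19.6% lower in these 2 comparisons. Mdm2, the ubiquitin ligase that targets p53, was read by probe 3450053. It gave 2732, 2704 and 2739 on the Luc 1-3 arrays and 4067, 4022 and 4052 on the Jmjd1a arrays. In the other set it read 4059, 4146 and 4065 in Luc 4-6 and 5659.7, 5524 and 5807 in Jmjd2c. Neither pair of groups overlapped, and the rises were 1.49-fold in Jmjd1a (0.57 ± 0.05, adjusted p = 4.39e-06) and 1.38-fold in Jmjd2c (0.47 ± 0.05, adjusted p = 1.41e-05). Of the 3 Jmjd1a arrays 1 lay within the range of Luc 4-6 and the other two below it. A second Mdm2 probe rose as well, by 0.31 in Jmjd1a and 0.53 in Jmjd2c (adjusted p = 0.0103 and 0.000209).

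Ccng1 encodes cyclin G1, a p53 target that brings a phosphatase to Mdm2. Its probe 102680068 read 2722, 2719 and 3212 in Luc 1-3 and 4043, 4207 and 4238 in Jmjd1a, then 4404, 4519 and 4711 in Luc 4-6 and 6042, 5931 and 6183 in Jmjd2c. The highest values were those of the Jmjd2c arrays, with no overlap in either set, and the changes were 0.53 ± 0.07 (adjusted p = 0.000157) and 0.41 ± 0.07 (adjusted p = 0.000606). Both other tested Ccng1 probes rose in both knockdowns, by 0.55 and 0.78 in Jmjd1a and by 0.20 and 0.26 in Jmjd2c. On these 2 probes the rise in Jmjd1a exceeded that in Jmjd2c in the direct test (adjusted p = 0.0124 and 0.00545), which the probe with the highest mean did not show (adjusted p = 0.411).

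Trp53inp1, a stress-induced gene whose product promotes phosphorylation of p53, read 1568, 1566 and 1514 in Luc 1-3 and 2342, 2206 and 2208 in Jmjd1a. It read 2705, 2607 and 2955 in Luc 4-6 and 3153, 3402 and 3076 in Jmjd2c. The groups of each set did not overlap, the rise was 0.54 ± 0.06 in Jmjd1a against 0.22 ± 0.06 in Jmjd2c, and this difference passed (0.32 ± 0.09, adjusted p = 0.0231). The Jmjd2c call ended without Jmjd2c replicate 2 or Luc replicate 5 (adjusted p = 0.0638 and 0.0615), and that of the difference without Jmjd1a replicate 1 (adjusted p = 0.0560). Zmat3, an RNA-binding zinc finger gene, rose by 0.45 ± 0.06 and 0.21 ± 0.06, the second not without Jmjd2c replicate 2 (adjusted p = 0.0564).

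Mdm4, the Mdm2 relative that holds p53 inactive, read 149.5, 136 and 138 in Luc 1-3 and 129, 128 and 118 in Jmjd1a, a change of -0.18 ± 0.07 that did not pass (adjusted p = 0.0734). It read 269, 255 and 286 in Luc 4-6 and 210.3, 209 and 229 in Jmjd2c, where it fell by 0.32 (SE 0.07, adjusted p = 0.00298). All knockdown arrays lay below the Luc arrays of their set, opposite in direction to Mdm2. The 2 other tested Mdm4 probes, which were dimmer, did not pass in either knockdown. Gtse1, a gene of the G2 phase whose product carries p53 out of the nucleus, changed by 0.10 ± 0.07 in Jmjd1a (adjusted p = 0.382) and rose by 0.44 ± 0.07 in Jmjd2c (adjusted p = 0.000587). Its second, dimmer probe did not pass in Jmjd2c (0.21, adjusted p = 0.113). The difference between the knockdowns passed (-0.34 ± 0.10, adjusted p = 0.0314) but not without Jmjd1a replicate 2 or 3, Jmjd2c replicate 1 or 2, or Luc replicate 1, 2, 4 or 5 (adjusted p up to 0.0707).

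**Figure D2:**
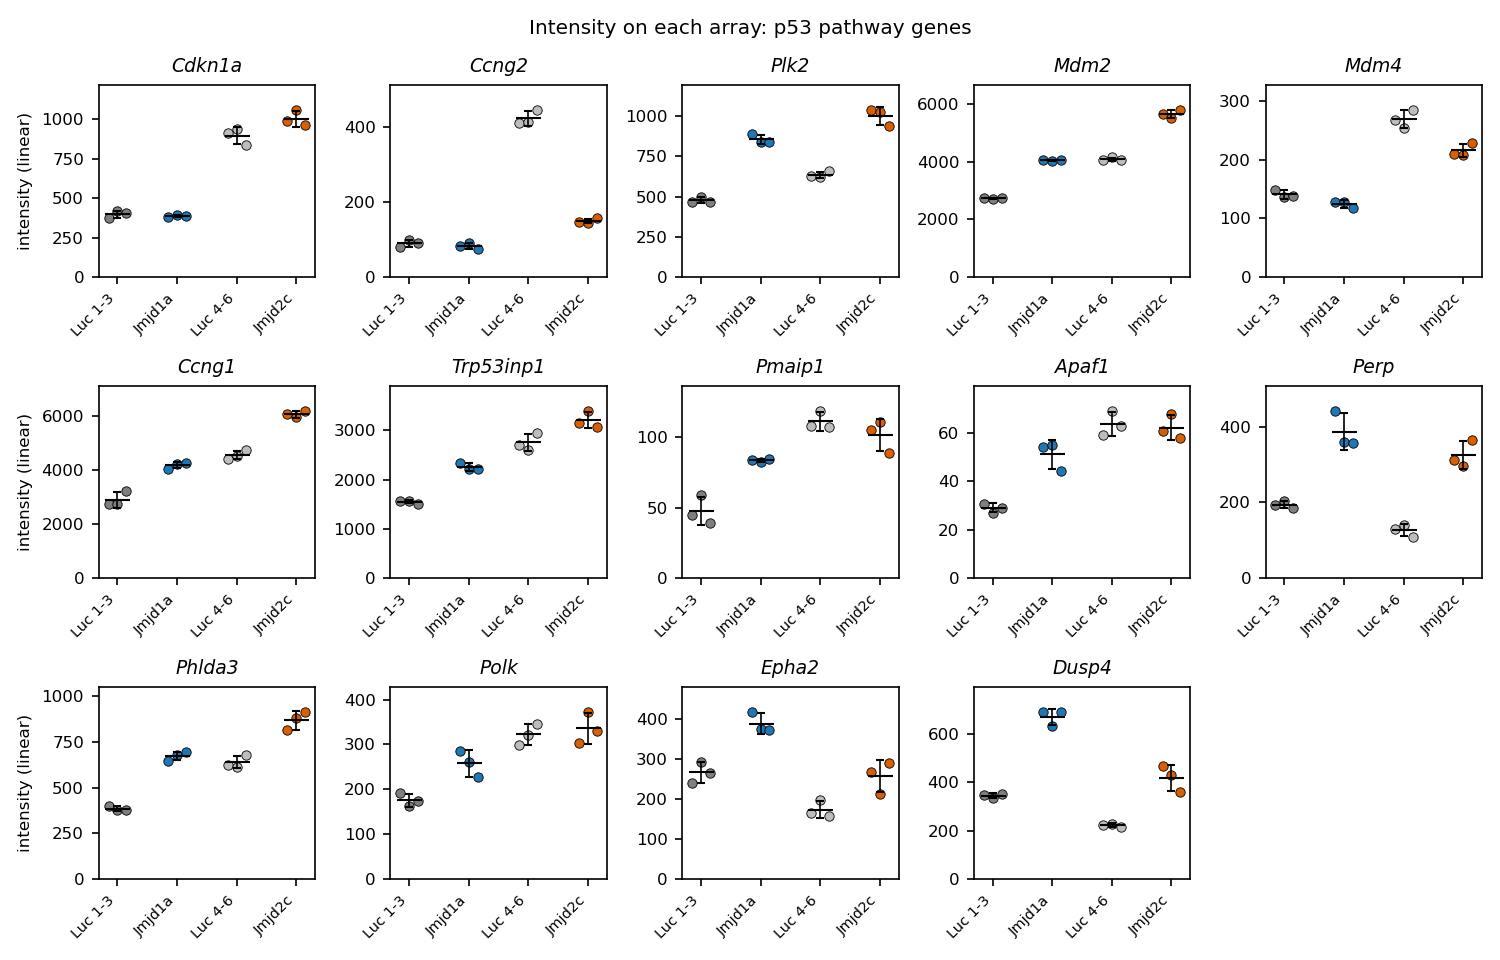
Intensity on each array (y axis, linear scale from 0) for the 14 genes given array by array, in Luc 1-3, Jmjd1a, Luc 4-6 and Jmjd2c (x axis), with a point per array and bars for mean ± SD (n = 3). Mdm2 and Ccng1 step up from each Luc group to its knockdown, Cdkn1a is 2.25-fold higher in Luc 4-6 than in Luc 1-3, Ccng2 is highest in Luc 4-6, and Perp, Epha2 and Dusp4 are lower in Luc 4-6 than in Luc 1-3.

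Among the arrest genes 2 of 6 rose in Jmjd1a with 0 lower (median 0.10), and 3 rose and 1 fell in Jmjd2c (median 0.18). The shares of all genes tested were 14.5% and 22.7% higher and 13.6% and 19.6% lower. Cdkn1a encodes p21, the cyclin-dependent kinase inhibitor through which p53 halts the cell cycle. Its probe 4050088 read 374, 415 and 404 in Luc 1-3 and 382, 393 and 385 in Jmjd1a, ranges that overlapped, with a change of -0.04 ± 0.06 (adjusted p = 0.740). It read 914, 936 and 836 in Luc 4-6 and 986, 1059.6 and 959 in Jmjd2c, where all 3 arrays were higher by a margin that did not pass (0.16 ± 0.06, adjusted p = 0.0672). The difference between the control sets was larger: Luc 4-6 exceeded Luc 1-3 by 2.25-fold (1.17 ± 0.06, adjusted p = 4.33e-08). A second Cdkn1a probe gave 0.06 and 0.17 for the knockdowns (adjusted p = 0.648 and 0.0904) and 1.29 between the Luc sets.

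Plk2, a Polo-like kinase gene induced by p53 and by serum, read 468, 499.6 and 468 in Luc 1-3 and 890.4, 840.0 and 839 in Jmjd1a. It read 626, 625 and 658 in Luc 4-6 and 1042, 1026 and 940.3 in Jmjd2c. Every knockdown array exceeded every Luc array of either set, and the rises were 1.79-fold (0.84 ± 0.06, adjusted p = 1.63e-06) and 1.58-fold (0.66 ± 0.06, adjusted p = 7.59e-06). Its relative Plk3 changed less, by 0.17 ± 0.06 in Jmjd1a (adjusted p = 0.0586) and 0.19 ± 0.06 in Jmjd2c (adjusted p = 0.0222). The Plk3 call in Jmjd2c ended without Jmjd2c replicate 1 or 2 or Luc replicate 4 or 6 (adjusted p up to 0.0720).

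Ccng2 encodes cyclin G2, an inhibitor of the cell cycle that FoxO factors also induce. It read 79.1, 99.4 and 90.4 in Luc 1-3 and 83.8, 89.4 and 73.8 in Jmjd1a, with overlap and a change of -0.12 ± 0.09 (adjusted p = 0.397). It read 409, 412 and 445 in Luc 4-6 and 146, 145 and 156 in Jmjd2c, a fall of 2.83-fold (-1.50 ± 0.09, adjusted p = 4.13e-07). The Luc 4-6 arrays stood apart from the other 9, 4.72-fold above Luc 1-3, and the Jmjd2c arrays lay between the Luc sets. The change differed between the knockdowns by 1.38 ± 0.13 (adjusted p = 2.66e-05). Gadd45a, a damage-induced gene of the G2 checkpoint, changed by 0.03 ± 0.06 in Jmjd1a (adjusted p = 0.846) and rose by 0.34 ± 0.06 in Jmjd2c (adjusted p = 0.00125). The spindle protein gene Ckap2 rose by 0.35 ± 0.09 in Jmjd1a (adjusted p = 0.0113) and changed by -0.16 ± 0.09 in Jmjd2c (adjusted p = 0.169). The difference between the knockdowns passed for Gadd45a (-0.32 ± 0.09, adjusted p = 0.0235) and Ckap2 (0.51 ± 0.12, adjusted p = 0.0106). For Gadd45a it did not without Jmjd1a replicate 1, Jmjd2c replicate 2 or Luc replicate 2 or 4 (adjusted p up to 0.0571).

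Among the apoptosis genes 4 of 8 rose in Jmjd1a (median 0.40) and 3 of 8 in Jmjd2c (median 0.11), with 0 lower in either. The shares of all genes tested were 14.5% and 22.7% higher and 13.6% and 19.6% lower. Perp encodes a tetraspan membrane protein of p53-dependent apoptosis that also serves in epithelial desmosomes. It read 192, 204 and 186 in Luc 1-3 and 442, 358 and 357 in Jmjd1a, then 130.4, 141 and 109 in Luc 4-6 and 312, 296 and 365 in Jmjd2c. All 6 knockdown arrays exceeded all 6 Luc arrays. The rises were 1.98-fold (0.99 ± 0.12, adjusted p = 7.95e-05) and 2.57-fold (1.36 ± 0.12, adjusted p = 4.77e-06), the highest of the 26 genes in both comparisons, and their difference did not pass (-0.37 ± 0.16, adjusted p = 0.121).

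Phlda3, a p53 target that restrains the survival kinase Akt, read 402, 377 and 377 in Luc 1-3 and 647, 681 and 694 in Jmjd1a. It read 625, 616 and 677 in Luc 4-6 and 815, 881 and 917 in Jmjd2c. No groups of a set overlapped, and the rise of 0.81 ± 0.06 in Jmjd1a (adjusted p = 3.76e-06) exceeded that of 0.45 ± 0.06 in Jmjd2c (adjusted p = 0.000216). The difference was 0.36 ± 0.09 (adjusted p = 0.0128).

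Pmaip1 and Apaf1, genes of the mitochondrial branch of apoptosis, rose in Jmjd1a and did not pass in Jmjd2c. Bbc3, of the same branch, passed in neither. On the probes with the highest mean, every Jmjd1a array of Pmaip1 and Apaf1 lay below every Luc 4-6 and Jmjd2c array. Pmaip1, which encodes the BH3-only protein Noxa, read 44.9, 58.8 and 39.2 in Luc 1-3 and 84.2, 82.2 and 84.7 in Jmjd1a. It read 108, 119 and 107 in Luc 4-6 and 105, 111 and 88.8 in Jmjd2c. The gene rose in Jmjd1a by 0.83 ± 0.13 (adjusted p = 0.000582), whereas the Jmjd2c arrays overlapped their Luc arrays (-0.14 ± 0.13, adjusted p = 0.444), and the difference passed (0.97 ± 0.18, adjusted p = 0.00265). A second probe gave 1.13 in Jmjd1a and -0.20 in Jmjd2c, with a difference of 1.32 ± 0.13 (adjusted p = 4.24e-05).

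Apaf1, the scaffold of the apoptosome, read 30.8, 27.1 and 29.1 in Luc 1-3, all below the floor of 32, and 54.1, 55.2 and 44.4 in Jmjd1a, so it was at least 1.59-fold higher. It read 59.4, 69.3 and 63.0 in Luc 4-6 and 60.8, 68.0 and 57.9 in Jmjd2c, which overlapped (-0.04 ± 0.09, adjusted p = 0.789). The difference between the changes was 0.71 ± 0.13 (adjusted p = 0.00240), and this low signal was no longer called with a floor of 64. Bbc3, which encodes the BH3-only protein Puma, lay near the floor at 26.1 to 68.9 over the 12 arrays and passed in neither knockdown (0.10 and -0.33, adjusted p = 0.674 and 0.0701). The death receptor gene Fas, at 19.9 to 39.3, did not pass either. Ei24, a gene of the endoplasmic reticulum induced by p53, changed by 0.01 ± 0.05 and 0.09 ± 0.05 (adjusted p = 0.910 and 0.207).

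The nuclease gene Aen depended on the probe. On the brighter one it changed by 0.12 ± 0.08 in Jmjd1a (adjusted p = 0.319) and rose by 0.44 ± 0.08 in Jmjd2c (adjusted p = 0.000974). On the second probe, which read 36.0 ± 4.30 in Luc 1-3, it rose in both, by 0.65 and 0.48 (adjusted p = 0.00228 and 0.00832). Neither probe showed a difference between the knockdowns that passed (adjusted p = 0.0549 and 0.538).

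Among the repair genes 1 of 4 rose and 1 fell in Jmjd1a (median -0.13), and 0 rose and 2 fell in Jmjd2c (median -0.11), where 28.1% and 42.4% of all genes tested were called in either direction. With 4 genes nothing is read from these counts. Polk, which encodes the translesion polymerase kappa, read 191, 162 and 175 in Luc 1-3 and 286, 262 and 227 in Jmjd1a, a rise of 0.55 ± 0.10 (adjusted p = 0.00230). It read 299, 322 and 346 in Luc 4-6 and 304, 373 and 331 in Jmjd2c, which overlapped (0.06 ± 0.10, adjusted p = 0.714). The difference was 0.49 ± 0.15 (adjusted p = 0.0302), and it was not called without Jmjd1a replicate 1 or 2, Jmjd2c replicate 1 or 3, or Luc replicate 2, 3, 5 or 6 (adjusted p up to 0.0706).

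Ddb2 and Xpc encode the damage sensors of nucleotide excision repair. In Jmjd1a they changed by -0.15 ± 0.10 and -0.11 ± 0.09 (adjusted p = 0.312 and 0.420). In Jmjd2c Ddb2 fell by 0.29 (SE 0.10, adjusted p = 0.0400) and Xpc by 0.42 (SE 0.09, adjusted p = 0.00349), from 162 ± 7.27 to 133 ± 17.7 and from 262 ± 18.1 to 196 ± 22.1. Of the 3 other Ddb2 probes 2 fell and 1 did not pass (adjusted p = 0.0129, 0.00455 and 0.611), and the second Xpc probe did not pass (-0.15, adjusted p = 0.413). The Ddb2 call was lost without Jmjd2c replicate 1 (-0.17, adjusted p = 0.154), Jmjd2c replicate 2, Jmjd1a replicate 3 or Luc replicate 2, 4, 5 or 6, and also with a floor of 16 (adjusted p = 0.0511) or an intensity trend (0.0581). Sesn1, a sestrin gene of redox and mTORC1 control, fell in Jmjd1a by 0.32 (SE 0.09, adjusted p = 0.0285) and changed by 0.15 ± 0.09 in Jmjd2c (adjusted p = 0.226). Its fall was not called without Jmjd1a replicate 2 or 3 or Luc replicate 3 (adjusted p = 0.112, 0.0743 and 0.104). The difference of -0.47 ± 0.13 between the knockdowns passed (adjusted p = 0.0241), though not without Jmjd1a replicate 2, Jmjd2c replicate 1 or Luc replicate 5 (adjusted p up to 0.0577).

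Epha2 and Dusp4 are p53 targets that also respond to ERK signalling, an ephrin receptor and a MAP kinase phosphatase. Epha2 read 241, 293 and 266 in Luc 1-3 and 419, 375 and 374 in Jmjd1a, then 165, 197 and 158 in Luc 4-6 and 268, 214 and 291 in Jmjd2c. Dusp4 read 349.9, 334 and 350.4 in Luc 1-3 and 693, 634 and 689.5 in Jmjd1a, then 224, 229.5 and 214 in Luc 4-6 and 466, 430.5 and 359 in Jmjd2c. Within each set the knockdown arrays were higher with no overlap, and the Jmjd1a arrays of both genes were the highest of the 12. Epha2 rose by 0.55 ± 0.12 and 0.56 ± 0.12 (adjusted p = 0.00637 and 0.00341) and Dusp4 by 0.96 ± 0.09 and 0.90 ± 0.09 (adjusted p = 9.74e-06 and 1.09e-05). A second Dusp4 probe rose by 0.80 and 0.63.

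**Figure D3:**
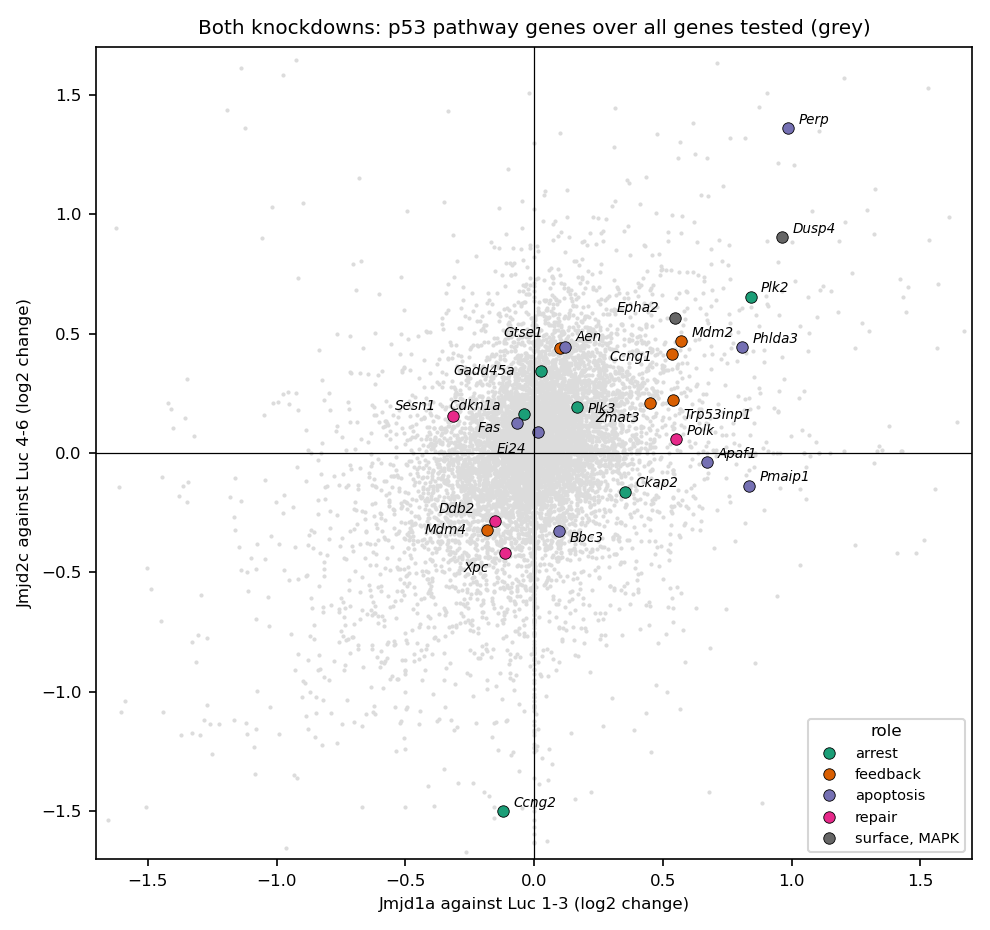
Log2 change in Jmjd1a against Luc 1-3 (x axis) and in Jmjd2c against Luc 4-6 (y axis) for the 26 p53 pathway genes, coloured by role, over all 9222 genes tested (grey, with 47 genes beyond the axes at 1.7 not drawn). Perp (0.99, 1.36), Dusp4 and Plk2 stand in the upper right, Pmaip1 and Apaf1 lie to the right near 0 on the y axis, and Ccng2 lies at the bottom.

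The third comparison set the control cultures of the 2 sets against each other. Of the 26 genes 17 were higher in Luc 4-6 than in Luc 1-3, 3 were lower and 6 did not pass, where 61.8% of all genes tested were called, 40.2% higher and 21.6% lower. The median was 0.70 over the 26 genes and 0.11 over all genes. Large differences were those of Ccng2 (2.24 ± 0.09), Ddb2 (1.40 ± 0.10), Pmaip1 (1.24 ± 0.13), Cdkn1a (1.17 ± 0.06) and Xpc (1.06 ± 0.09), with adjusted p between 4.35e-09 and 6.07e-06. Apaf1, wholly under 32 in Luc 1-3, was at least 1.99-fold higher, so its place among them is not determined. All 3 Luc 4-6 arrays lay above all 3 Luc 1-3 arrays for 18 genes and below them for 3, against 43.7% and 24.6% of all genes tested. The 3 genes called lower were Perp (-0.62 ± 0.12), Epha2 (-0.62 ± 0.12) and Dusp4 (-0.63 ± 0.09). The median of all tested probes was itself 0.10 higher in Luc 4-6, and -0.02 after quantile normalization. What separates the Luc sets was not tested.

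By role, 4 of 6 arrest genes, 4 of 6 feedback genes, 6 of 8 apoptosis genes and 3 of 4 repair genes were higher in Luc 4-6, with medians of 0.69, 0.62, 0.76 and 0.97. Both surface and MAP kinase genes were lower (median -0.63). Of all genes tested, 40.2% were called higher and 21.6% lower in Luc 4-6, with a median of 0.11. The Jmjd1a and the Luc set comparison share the Luc 1-3 arrays, so their values for a gene are not independent. Side by side they were 0.57 and 0.59 for Mdm2, 0.53 and 0.66 for Ccng1, 0.81 and 0.73 for Phlda3, 0.83 and 1.24 for Pmaip1 and 0.55 and 0.87 for Polk. For Cdkn1a they were -0.04 and 1.17, and for Perp 0.99 and -0.62.

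**Figure D4:**
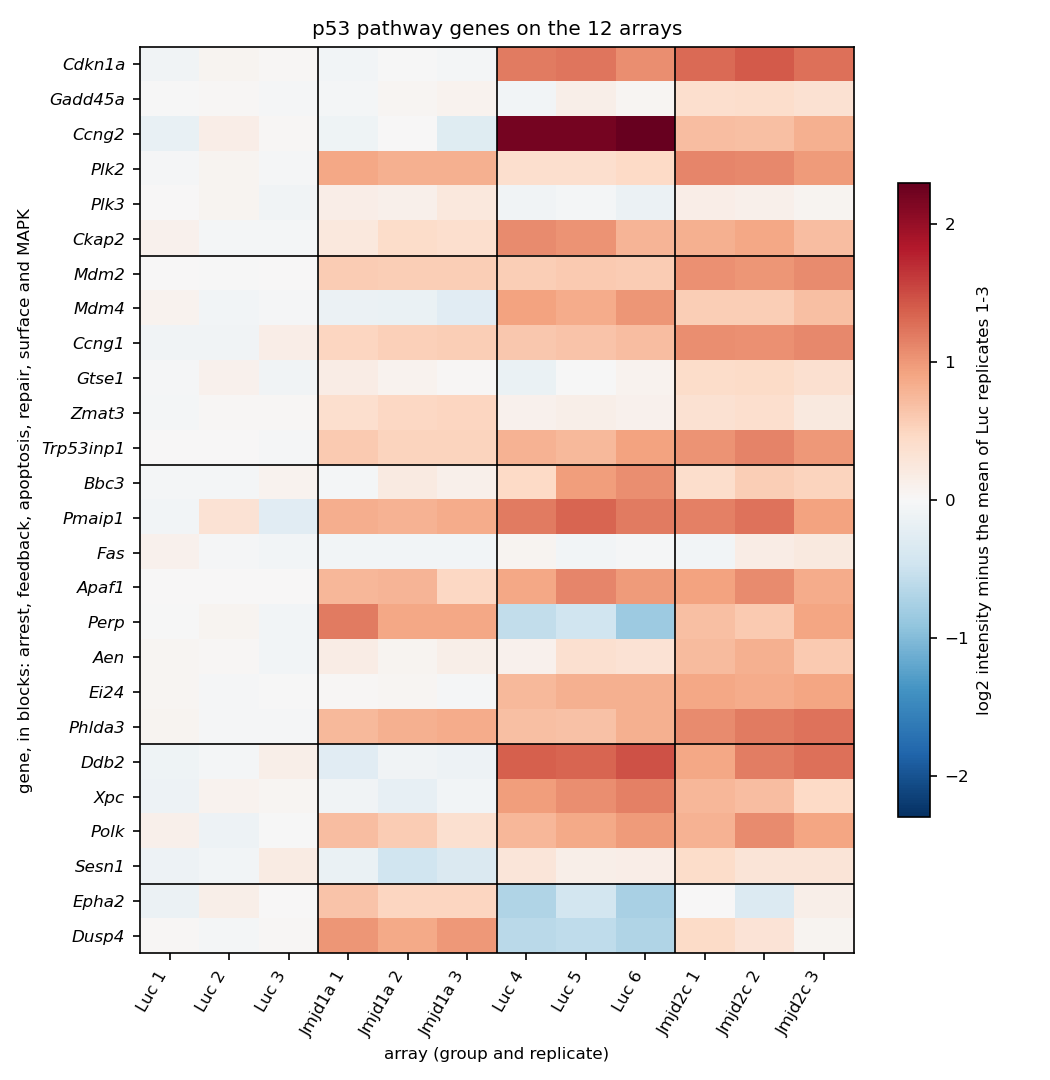
Log2 intensity of the 26 genes (y axis, in blocks by role) on each of the 12 arrays (x axis), after values under 32 were set to 32, minus the mean of Luc 1-3 (red higher, blue lower). Luc 4-6 differs from Luc 1-3 for most genes, with Ccng2 at 2.24, and Mdm2, Ccng1, Phlda3 and Trp53inp1 are redder in Jmjd1a than in Luc 1-3 and redder in Jmjd2c than in Luc 4-6.

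The study's own design set each knockdown against all 6 Luc arrays, which spans both sets. Measured so, 7 of the 26 genes were called in Jmjd1a (6 higher, 1 lower) and 9 in Jmjd2c (9 higher, 0 lower). The share of all genes called under this control was not computed, so these counts cannot be set against a background. In Jmjd1a, Perp (1.30), Dusp4 (1.28), Epha2 (0.86), Plk2 (0.63) and Zmat3 (0.39) stayed higher and Plk3 (0.21, adjusted p = 0.0449) was added, Sesn1 stayed lower (-0.41), and Ckap2 (-0.13), Mdm2 (0.28, adjusted p = 0.228), Ccng1, Trp53inp1, Pmaip1, Apaf1, Phlda3 and Polk no longer passed. In Jmjd2c, Mdm2 (0.76), Ccng1 (0.74), Phlda3 (0.81), Perp (1.05), Plk2 (0.86), Gadd45a (0.36), Gtse1 (0.43), Zmat3 (0.26) and Aen (0.58) stayed higher. Trp53inp1 had a larger change that did not pass (0.64, adjusted p = 0.0900). Plk3 (0.15), Mdm4 (0.15), Ddb2 (0.41) and Xpc (0.11) no longer passed, and Epha2 (0.25, adjusted p = 0.459), Dusp4 (0.59, adjusted p = 0.0578) and the fall of Ccng2 (-0.38, adjusted p = 0.731) did not pass.

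Genes around the pathway were taken from 2 further lists. Of 27 tested upstream regulators and cofactors 4 rose in Jmjd1a and 0 fell (median 0.04), and 10 rose and 3 fell in Jmjd2c (median 0.17), or 7 and 1 after quantile normalization. Over all genes tested 14.5% rose and 13.6% fell in Jmjd1a, and 22.7% and 19.6% in Jmjd2c, so the share of rises in Jmjd1a lay near the background. These shares belong to the main fit. They were not computed after quantile normalization or with an array left out, so those counts have no background beside them. In Jmjd2c the 13 calls went down to 8 without Jmjd2c replicate 1 and to 7 without replicate 2. In Jmjd1a the rises were those of the lysine methyltransferase gene Setd7 (0.95 ± 0.06), the p53 relative Trp73 (0.53 ± 0.12), Trp53bp2 (0.43 ± 0.12) and Ppm1d (0.34 ± 0.06), a phosphatase gene that is itself a p53 target and dampens the response. In Jmjd2c the largest rises were those of the kinase gene Hipk2 (0.70 ± 0.09), Ppm1d (0.54 ± 0.06), Topors (0.52 ± 0.08), Hexim1 (0.50 ± 0.12) and the damage-response adaptor Trp53bp1 (0.49 ± 0.05). Trp73 fell there (-0.38 ± 0.12), and its change differed between the knockdowns by 0.91 ± 0.17 (adjusted p = 0.00247).

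Of 38 further tested p53 targets 15 rose and 8 fell in Jmjd1a (median 0.20), and 14 rose and 6 fell in Jmjd2c (median 0.06), against the same shares of all genes (14.5% and 13.6%, then 22.7% and 19.6%). Ppm1d stands in both lists. Igfbp3 and Sfn had the 2 largest rises in Jmjd1a and in Jmjd2c: Igfbp3, a binding protein of insulin-like growth factors, rose by 1.73 ± 0.07 and 0.98 ± 0.07, and Sfn, the 14-3-3 sigma gene of G2 arrest, was at least 3.05-fold and at least 1.98-fold higher. Sfn read 23.0 ± 4.09 in Luc 1-3 and 97.8 ± 5.24 in Jmjd1a, and 4.27 ± 6.63 in Luc 4-6 and 63.8 ± 8.06 in Jmjd2c. No Luc array of Sfn exceeded 32, so it entered the tests only through knockdown arrays, which favoured a call of higher. Casp8 (0.87, with 1 of 3 Luc 1-3 arrays above 32), Ddit4 (0.82) and Crip2 (0.68) followed in Jmjd1a, and Pidd1 (0.89), Rprm (0.72), Eda2r (0.57) and Dyrk3 (0.57) in Jmjd2c. Ddit4, a stress-induced inhibitor of mTORC1, fell in Jmjd2c (-0.29 ± 0.11, adjusted p = 0.0479). The largest falls in Jmjd1a were those of Ldhb (-0.75), Ptprv (-0.59), Ephx1 (-0.48), Notch1 (-0.48) and Tob1 (-0.40, with 1 of 3 Jmjd1a arrays above 32), and in Jmjd2c Ldhb (-1.14), Tob1 (-0.57), Ephx1 (-0.43), Notch1 (-0.29) and Ddit4 were lower.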

How the data were processed

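Total RNA (500 ng per culture) was made into biotin-labelled cRNA and hybridised to one-colour Illumina bead arrays, per the labels' protocols. The authors deposited linear probe intensities for 46133 probes, of which 35.0% to 36.8% per array are negative. Any background subtraction or scaling by the authors is a step not given in the sources used here. Deposited intensities were floored at 32 and put on the log2 scale, and 15853 probes that exceeded 32 on 3 or more of the 12 arrays entered the tests. Gene symbols came from the platform annotation, in which 29542 probes carry 1 symbol, 11 several and 16580 none.

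All 12 arrays entered one limma 3.58.1 fit (R 4.3.3; lmFit, eBayes; 8 residual degrees of freedom) with 4 groups: Luc 1-3, Luc 4-6, Jmjd1a and Jmjd2c. P-values were two-sided and adjusted by Benjamini-Hochberg over all tested probes. A change against a group wholly under 32 is a lower bound. The number of arrays limits the precision, and p-values measure the spread between cultures only. The fit was tested on simulated data.

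Genes given array by array are Cdkn1a, Mdm2, Mdm4 and those called with a log2 change of at least 0.5 in a knockdown. From the 2 further lists up to 5 rises and falls are named. The genes, lists and comparisons were chosen with earlier results of these data known. Alternatives covered the control arrays, scaling, floor, filter, variance model, probes, a replicate block and leaving out each array. The numbers shared by Jmjd1a and Luc 1-3 did not pair the arrays: deviations of same-numbered arrays correlated at -0.00, 0.01 and 0.11.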

Additional observations from a re-analysis of the deposited data

How the results depend on the processing

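Against all 6 Luc arrays 7 pathway genes were called in Jmjd1a and 9 in Jmjd2c, in place of 14 and 17, with 13 and 10 of the further targets (from 23 and 20) and 1 upstream regulator in Jmjd2c (from 13). Under that control Ckap2 turned to -0.13 in Jmjd1a, and Mdm4 to 0.15, Ddb2 to 0.41 and Xpc to 0.11 in Jmjd2c, none of these 4 called. By construction this control mixes both Luc sets. Shares of all genes called were computed for the main fit only, so the counts under the alternatives have no background beside them. Without the filter on dim probes, which adds many tests, the difference between knockdowns was called for 4 genes (from 10), and upstream regulators for 2 in Jmjd1a (from 4) and 8 in Jmjd2c. It also ended the Jmjd1a calls on Ckap2, Sesn1 and Epha2 (adjusted p = 0.0678, 0.150 and 0.0605) and the Jmjd2c call on Ddb2 (0.198). A fit of the 2 groups alone, with fewer samples, called 2 upstream regulators and 15 further targets in Jmjd1a, and ended the calls on Sesn1 in Jmjd1a (0.128) and on Ddb2 and Trp53inp1 in Jmjd2c (0.0936 and 0.0510). Quantile normalization left 8 upstream regulators in Jmjd2c, and the cause was not tested. Floors of 16 and 64, median centring, an intensity trend and a filter on all 12 arrays kept each of the 4 counts of pathway genes within 1.5 times.

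With the replicate block 14 genes were called in Jmjd1a and 17 in Jmjd2c, 19 between the Luc sets and 10 for the difference. Jmjd2c and Luc 4-6 share no number, so no paired analysis was possible for them. Leaving out 1 array gave 13 to 14 genes in Jmjd1a, 13 to 17 in Jmjd2c, 19 to 21 between the Luc sets and 7 to 10 for the difference, and 7 to 13 upstream regulators in Jmjd2c, where 8 were left without Jmjd2c replicate 1 and 7 without replicate 2. Besides the calls named gene by gene above, the Luc set difference of Aen (0.27) was lost without Luc replicate 5 (adjusted p = 0.0509), under quantile normalization (0.05, adjusted p = 0.613), median centring (0.11, adjusted p = 0.274) and the block (adjusted p = 0.101), and without the filter (adjusted p = 0.0535). A floor of 16 and an intensity trend each ended the Jmjd2c call on Ddb2. Signals near the floor, as for Bbc3, Fas and Apaf1, limit what can be read from them.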
